A study of Mus musculus with 9 samples.

Results

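EWS/ATF1 sites with a high peak score in both the mouse sarcoma line G1297 and sarcoma-iPSC MEFs numbered 1436. They were selected on the scores themselves: a G1297 peak was taken when its score was at least 500 and when it overlapped by at least 1 bp a MEF peak whose score was also at least 500. These sites were 17.8% of the 8090 peaks in the G1297 list, and the 1428 MEF peaks that paired with them were 5.26% of the 27130 peaks in the MEF list. Taken alone, a score of at least 500 was reached by 2498 G1297 peaks (30.9%) and 9719 MEF peaks (35.8%). The score is the one that the peak caller MACS gives, -10 times the log10 of the P value of a peak, and the scale has a top near 3100 at which many peaks are tied. Since the scores chose the sites, all score values are given as a description.

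The data are ChIP-Seq peaks of EWS/ATF1, recovered through its hemagglutinin (HA) tag 12 h after doxycycline (Dox, 0.2 µg/ml) had been added to induce the fusion. G1297 is 1 sarcoma line, established from mice that carry Dox-inducible EWS/ATF1 alleles. Sarcoma-iPSC MEFs are embryonic fibroblasts from chimeric embryos made with iPSC clone #3, which was itself reprogrammed from G1297, so that both cell types carry the same inducible alleles. The fibroblasts had been selected with puromycin, to which cells of the iPSC clone are resistant, and all cells compared here had been exposed to Dox. The labels describe 2 ChIP libraries of G1297 and 1 of the MEFs, with 2 numbered inputs of G1297 and 1 input of the MEFs, and 1 peak list was used for each cell type. Whether 1 or both G1297 libraries entered its list was not given in the sources used here. No value could be set against a spread between replicates, the read depth of the libraries is unknown, and no test was made. Intervals are 95% intervals that cover counting error only and treat peaks as independent, which neighbouring peaks are not. All positions are in mouse build mm9.

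EWS/ATF1 is the fusion oncoprotein of clear cell sarcoma and joins the amino-terminal part of EWS, a strong activation domain, to the DNA-binding domain of ATF1. ATF1 belongs to the CREB/ATF family of basic leucine zipper factors, which bind as dimers to the cAMP response element. In normal cells the activity of these factors depends on phosphorylation by cAMP-dependent and other kinases, a control that the fusion largely escapes.

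Peaks with high scores in one list had a strong partner in the other more often as their own score rose. Among G1297 peaks with scores from 500 to under 1000, 592 of 1194 (49.6%, exact Clopper-Pearson interval 46.7 to 52.5) had a MEF partner of at least 500. The share was 59.4% of the 783 peaks from 1000 to under 2000, 68.4% of the 301 peaks from 2000 to under 3100, and 78.6% (72.6 to 83.9) of the 220 peaks at the top of the scale. Over all 2498 strong G1297 peaks it was 57.5% (55.5 to 59.4), and 29.9% (746 peaks) when only the 2498 highest-scoring MEF peaks were allowed as partners. Of the remainder, 526 overlapped only MEF peaks with scores under 500 and 536 overlapped no MEF peak. From the MEF side, with its larger number of strong peaks, the shares were lower. A strong G1297 partner was found for 7.95% of the 4417 peaks from 500 to under 1000 and 38.6% of the 1137 peaks at the top, and for 14.7% of all 9719.

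**Figure D1:**
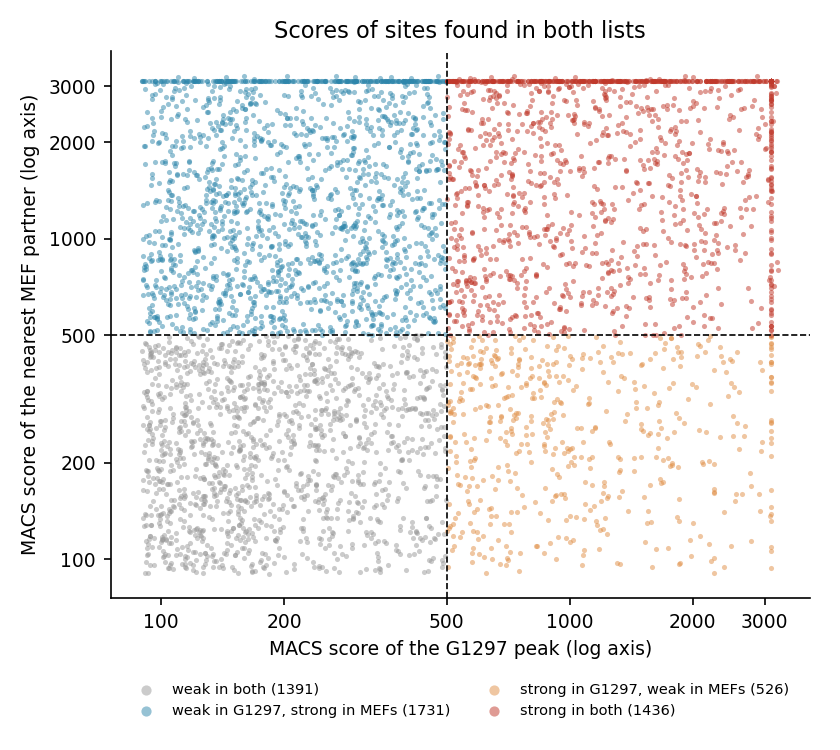
MACS score of each G1297 peak that overlapped a MEF peak (horizontal, log axis) against the score of its nearest MEF partner (vertical, log axis), where the nearest partner of at least 500 was taken if there was one. Dashed lines mark the score of 500, the 1436 sites strong in both lists fill the upper right corner, and the points lined up at 3100 are at the top of the scale.

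Within the 1436 sites, scores ran from the threshold to the top of the scale in both lists. The Spearman correlation of the scores was 0.16 over the 1436 sites, with scores at or above 3100 treated as 1 class, and 0.28 over all 5084 G1297 peaks that overlapped a MEF peak. Each point takes its G1297 score from 1 list and its MEF score from the other, and all points share the libraries and inputs behind those lists. Limited to the 896 sites below 3100 in both lists, the correlation was 0.09. The selection at 500 narrows the range of both scores, as the limit at 3100 does further, and the values within the selection are therefore no measure of how closely the scores of the cell types are related. The median G1297 score was 1213 and the middle 50% of sites lay between 743.4 and 2071. The 592 sites with a G1297 score under 1000 had a median MEF score of 1708, and the 173 sites at the top in G1297 had a median MEF score of 2975. The scores of the steps between them, 2156 and 2070, did not follow the order of the G1297 score. Read the other way, the median G1297 score was 1006 at the 351 sites with a MEF score under 1000 and 1425 at the 447 sites at the top in the MEFs.

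The top of the scale was reached in both lists at 80 sites (5.57%), in G1297 alone at 93 (6.48%) and in the MEFs alone at 367 (25.6%). Of the 173 sites at the top in G1297, 80 (46.2%, interval 38.6 to 54.0) were also at the top in the MEFs, and of the 1263 other sites 367 (29.1%, 26.6 to 31.6). At the other end, 174 sites (12.1%) were under 1000 in both lists. Ranked within each list, with the lowest peak near 0 and the highest near 100, the sites had a median percentile of 86.7 in G1297, and the MEF peaks paired with them had a median of 91.3.

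Among sites below 3100 in both lists, the one with the highest lower score lay at chr12:117842910-117844214, with a G1297 score of 2832 and a MEF score of 2717. Its peaks were 1305 and 1403 bp wide, and their centres lay 54.0 bp apart. The next 4 in this order lay at chr2:5557539-5559686, at chr6:15739471-15741115, at chr13:96724976-96726366 and at chr9:115914230-115916095. Their G1297 scores ran from 2576 to 2794 and their MEF scores from 2569 to 2942. All 5 were above the 94th percentile of both lists, with 0 to 6 other peaks of either list within 10000 bp.

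Of the 80 sites at the top in both lists, the one with the longest overlap stood apart by its width. It lay at chr17:39979918-39986017 and was 6100 bp wide in G1297 and 6042 bp wide in the MEFs, with an overlap of 5904 bp and no other peak within 10000 bp. It was the widest peak of the whole G1297 list. The lists were not filtered here for repeated sequence, and whether the signal at this site reflects binding of the fusion was not tested. The next site, at chr17:3441248-3444184, was 2937 bp wide in G1297 and lay wholly within a MEF peak of 3294 bp. The others among the 5 lay at chr17:28584579-28587005, at chr18:69782775-69785164 and at chr13:112135204-112137526, with G1297 widths of 2427, 2390 and 2323 bp. In the last of these, the MEF peak extended further on one side, to a width of 3454 bp, and the centres lay 575.5 bp apart.

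The largest gaps in percentile between the lists, among sites below 3100 in both, are bounded by the selection on scores. Highest in G1297 relative to the MEFs was a site at chr2:179103715-179104934, at a score of 2795 (percentile 96.7) in G1297 and 528.3 (65.7) in the MEFs. A site at chr3:116704198-116705661 had scores of 2889 and 545.9, and one at chr13:110727866-110728956 had scores of 2302 and 525.4. In the opposite direction, a site at chr8:37255885-37257074 had a score of 500.4 (percentile 69.2) in G1297 and 2774 (94.8) in the MEFs. A site at chr11:46408224-46409167 had scores of 527.4 and 3095, and one at chr3:94630012-94630978 had scores of 529.8 and 3027. The peak centres at 4 of the 6 sites lay within 100 bp of each other, at 13.5 to 95.0 bp, as they did at 63.4% of all 1436 sites. At the sites on chromosomes 13 and 8 the centres lay 234 and 477.5 bp apart.

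Some sites lay close to the threshold in both lists. Those nearest it by their lower score, named here, were close to it in only 1 of the lists. Just inside were a site at chr15:84714150-84714964, with a G1297 score of 500.4 against 1330 in the MEFs, and the site on chromosome 8 named above. Just outside were a G1297 peak at chr1:163935964-163936873, with a score of 498.1 inside a MEF peak of 3831 bp at the top of the scale, and a G1297 peak at chr5:127446883-127449181 at the top of the scale, whose MEF partner had a score of 497.9.

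Pairing was nearly always 1 to 1. Of the 1436 sites, 1432 had 1 strong MEF partner and 4 had 2, and 12 MEF peaks spanned 2 sites each. The 4 sites with 2 partners lay at chr10:118536579-118538296, chr10:69582263-69583407, chr5:103199084-103200412 and chr5:129787646-129790050. The last of them was at the top of the scale in G1297 and 2405 bp wide. The sites at chr10:118536579-118538296 and chr5:103199084-103200412 had the longest overlap with their nearest partner among the 4 and came from the naming rule, while the other 2 were chosen after their values were seen.

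The peaks of both cell types at these sites lay almost on top of each other. Overlap was required by the selection, which limits how far apart the centres can lie. The median distance between the centres was 70.5 bp (order-statistic interval 65.5 to 75.0), against a median peak width of 1211 bp in G1297. The middle 50% of distances ran from 34.0 to 144.6 bp, 911 sites (63.4%) had centres within 100 bp and 63 (4.39%) had centres more than 500 bp apart. The MEF centre lay at the higher coordinate at 682 sites and at the lower at 751. The shorter peak was covered by the longer over 100% of its length in the median and over 95.5% at the 10th percentile. At 889 sites (61.9%) the G1297 peak lay wholly within its MEF partner. The MEF peak lay within the G1297 peak at 171 (11.9%), and at 376 (26.2%) the peaks were staggered. At sites weak in both lists, the first 2 shares were similar, 53.6% and 11.3%. They were 94.4% and 0.231% at sites strong in the MEFs alone, and 5.89% and 64.1% at those strong in G1297 alone. No pair had identical ends. Among the sites strong in both, 1 had an overlap under 50% of the shorter peak. It lay at chr11:100648298-100650616, where 70 bp were shared, and was chosen after its value was seen, as was the site with the most distant centres, 1896 bp apart, at chr4:32393177-32394048 inside a MEF peak of 5420 bp.

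Shared sites outside the selection, which overlapped by definition too, had closely placed centres as well. The median distance was 62.8 bp (57.0 to 71.0) at the 526 sites strong in G1297 and weak in the MEFs, 85.5 bp (79.0 to 92.5) at the 1731 sites weak in G1297 and strong in the MEFs, and 48.5 bp (45.5 to 52.0) at the 1391 sites weak in both. Their peaks differed in width, and relative to the shorter peak the median distance was 5.86% at the sites strong in both, 6.93% at those strong in G1297 alone, 11.0% at those strong in the MEFs alone and 6.90% at those weak in both. Among the sites strong in both, the median distance was 65.2 bp where the G1297 score was under 1000 and 88.5 bp where it was at the top. It was 58.5 bp where the MEF score was under 1000 and 93.5 bp where it was at the top.

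**Figure D2:**
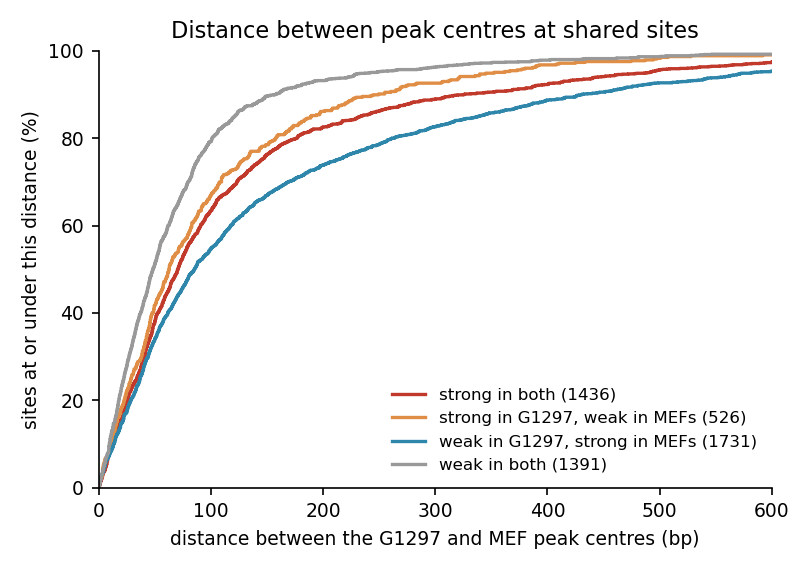
Cumulative share of sites (vertical, percent) by the distance between the centres of the G1297 peak and its nearest MEF partner (horizontal, bp) for the 4 classes of shared sites, with the axis ending before the largest distances. At 100 bp the curve of the sites strong in both lists is at 63.4%, that of the sites weak in both at 79.2% and that of the sites weak in G1297 and strong in the MEFs at 54.8%.

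Peak width differed with the score in each list. In G1297 the 1436 sites had a median width of 1211 bp (interval 1190 to 1233), with 10% of them under 940 bp and 10% over 1792 bp, while all G1297 peaks had a median of 815 bp and all those with a score of at least 500 a median of 1174 bp. The paired MEF peaks had a median width of 1442 bp (1415 to 1468), against 970 bp over the MEF list and 1328 bp over its strong peaks. The MEF peak was the wider at 1099 sites (76.5%), and the median ratio of MEF to G1297 width was 1.18 (1.17 to 1.20). Within each list, width and score moved together over the 1436 sites, with a Spearman correlation of 0.69 in G1297 and 0.70 in the MEFs. The widths of the paired peaks had a correlation of 0.37. The width ratio followed the scores. It was 1.31 at sites with a G1297 score under 1000 and 0.96 at those at the top in G1297, and it was 1.01 at sites with a MEF score under 1000 and 1.37 at those at the top in the MEFs. At the sites strong in G1297 and weak in the MEFs it was 0.79, at those weak in G1297 and strong in the MEFs 1.80, and at the sites weak in both 1.18, equal to that of the sites strong in both.

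**Figure D3:**
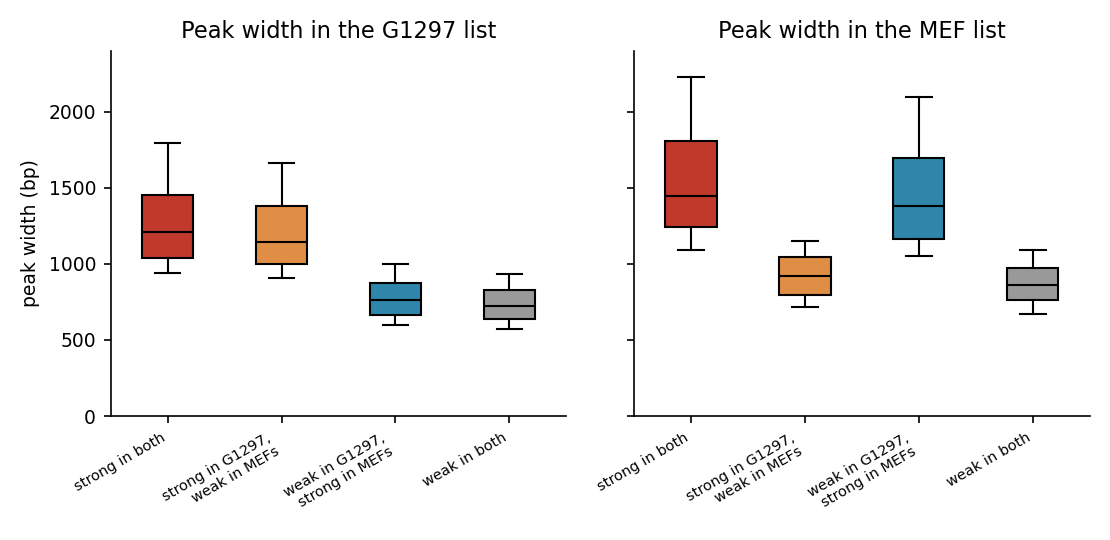
Peak width in bp at the 4 classes of shared sites, in the G1297 list (left) and at the nearest MEF partner in the MEF list (right). Boxes show the quartiles with the median as a line and whiskers the 10th and 90th percentiles, and at the sites strong in both lists the G1297 box is centred on 1211 bp.

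Sites strong in both lists often had further EWS/ATF1 peaks close by. Another G1297 peak lay within 10000 bp, edge to edge, of 662 sites (46.1%, interval 43.5 to 48.7), against 36.9% of all G1297 peaks. Other strong G1297 peaks had neighbours about as often, with 46.0% (41.7 to 50.4) of those with a weak MEF partner and 47.2% (42.9 to 51.5) of those without a MEF partner. Among weak G1297 peaks the share was 29.0% (26.9 to 31.2) where the MEF peak was strong, 30.8% (28.4 to 33.3) where it was weak and 36.4% (34.5 to 38.4) where there was none. The order of the 3 classes of strong G1297 peaks moved with the threshold. With a score of at least 1000 asked of both lists, the share was 53.1% at the 668 remaining sites, 44.9% at the strong G1297 peaks with a weaker MEF partner and 46.8% at those without one. With a score of at least 300 it was 42.6%, 44.1% and 45.6% in the same order of classes. Counting only neighbours with a score of at least 500, 23.7% of the 1436 sites had one, against 17.6% of all G1297 peaks, 22.1% of the strong G1297 peaks with a weak MEF partner and 22.4% of those without one.

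In the MEF list, 896 of the 1428 paired peaks (62.7%, interval 60.2 to 65.3) had another MEF peak within 10000 bp, against 52.0% of all MEF peaks. The share was 58.5% of MEF peaks that were strong with a weak G1297 partner, 57.6% of strong MEF peaks without a partner, 47.6% and 43.7% of weak MEF peaks with a strong and a weak G1297 partner, and 48.8% of weak MEF peaks without one. Within 1000 bp, 193 sites (13.4%) had another G1297 peak, against 10.1% of all G1297 peaks, 10.3% of strong G1297 peaks with a weak MEF partner and 13.1% of those without one. Another MEF peak lay within that distance of 272 of the paired MEF peaks (19.0%), against 14.3% of all MEF peaks and 17.0% of all strong ones.

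**Figure D4:**
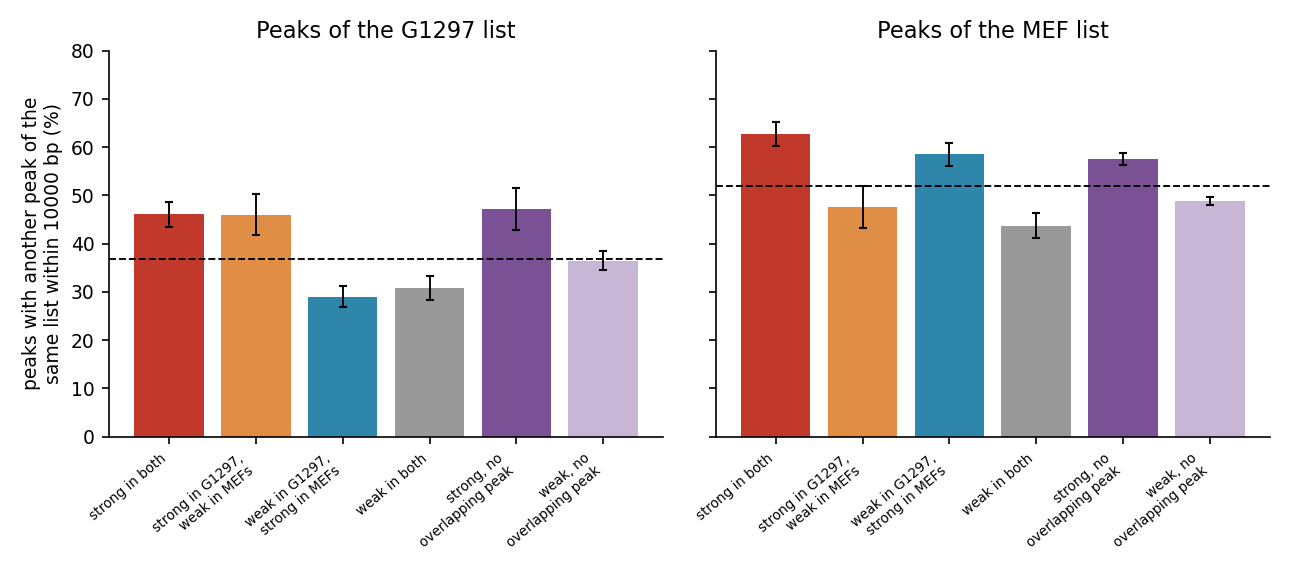
Share of peaks with another peak of the same list within 10000 bp (percent), by class, for the G1297 list (left) and the MEF list (right). Error bars are exact 95% binomial intervals and the dashed line is the share over the whole list, 36.9% in G1297 and 52.0% in the MEFs.

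The surroundings of the sites held peaks of each cell type alone. A MEF peak without a G1297 partner lay within 10000 bp of 627 sites (43.7%), and a G1297 peak without a MEF partner within 10000 bp of 255 (17.8%), with 96 sites (6.69%) having both. Over all 8090 G1297 peaks these shares were 31.9%, 17.2% and 4.50%. Sites strong in the MEFs alone had a MEF-only peak nearby in 45.8% and a G1297-only peak in 8.15% of cases, and sites strong in G1297 alone in 26.4% and 24.3%. The MEF list holds more than 3 times as many peaks as the G1297 list, and the shares are compared between classes of sites and not between the lists. The most crowded sites, with 9 other peaks of either list within 10000 bp each, lay at chr6:31049358-31051366 and at chr1:40901503-40902697. Both were paired with a MEF peak at the top of the scale.

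Most sites stood alone among the sites of their kind. When sites within 10000 bp of each other were joined, 1194 of 1307 groups held a single site, 99 held 2, 12 held 3 and 2 held 4, so that 242 sites (16.9%) had another site strong in both lists nearby. Such a site lay nearby for 10.8% of all G1297 peaks, 13.9% (11.0 to 17.1) of strong G1297 peaks with a weak MEF partner and 10.1% of those without one, against an interval of 15.0 to 18.9 for the sites themselves. The share for the sites was in part set by the selection. Each of the 12 MEF peaks that spanned 2 sites brought both of these neighbours into it, and the shares are therefore not strictly comparable. The 2 groups of 4, chosen after they were seen, differed in their arrangement. On chromosome 13 from 44212573 to 44229421, 4 separate sites with G1297 scores of 1858, 2516, 1218 and 1457 were each paired with a MEF peak of their own, with scores of 1360, 3100, 2760 and 1503. The centres of paired peaks lay between 7.5 and 132.5 bp apart at all 4 sites of this stretch of 16849 bp. On chromosome 9 from 22482555 to 22492513, the 4 sites had G1297 scores of 1510, 533.4, 3100 and 2018. The pair in the middle was separated by a short gap in G1297 but was covered by 1 MEF peak of 3139 bp at the top of the scale, and the outer sites had MEF scores of 966.9 and 921.3.

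The sites were found on every autosome, from 50 on chromosome 7 to 120 on chromosome 2. The share of strong G1297 peaks that had a strong MEF partner ranged among autosomes from 47.4% on chromosome 5 (81 of 171, interval 39.7 to 55.1) to 68.5% on chromosome 13 (111 of 162, 60.8 to 75.6), around the 57.5% of the whole list. Next came chromosome 7 with 67.6% (50 of 74), then 14 with 66.0% (62 of 94) and 19 with 65.8% (52 of 79). At the low end were chromosome 4 with 48.8% (62 of 127) and chromosome 10 with 49.7% (85 of 171). These chromosomes were singled out as extremes after their values were seen, and the order moved with the threshold: at a score of at least 1000 in both lists the highest share was 64.1% on chromosome 7 and the lowest 36.5% on chromosome 4, with 58.0% on chromosome 13 and 41.0% on chromosome 5. Chromosome 13 held 7.73% of the sites and 6.07% of all G1297 peaks, and chromosome 5 held 5.64% and 7.45%. From the MEF side the order differed. Chromosome 6 had the highest share of strong MEF peaks with a strong G1297 partner, 20.8%, while its G1297 share was 55.0%. Chromosomes 14 and 7, among the highest by G1297 share, had only 11.6% and 11.0% by MEF share, and chromosome 13 had 18.3%. The study reported chromosomal aberrations in G1297 and a part of such abnormalities in the sarcoma-iPSC MEFs. Copy number was not taken into account in these shares, and its bearing on them was not tested.

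Chromosome X held 3 of the sites, out of 8 strong G1297 peaks and 64 strong MEF peaks on it. They lay at chrX:12012976-12013968, chrX:134503344-134504623 and chrX:140103907-140104924, with G1297 scores of 561.8, 1134 and 776.8 and MEF scores of 1300, 1307 and 1211. Another 2 sites lay on the random contigs of mm9, which hold sequence without a known position on its chromosome, 4_random from 109369 to 110522 and 9_random from 306837 to 307974, with G1297 scores of 744 and 1377 and MEF scores of 3100 and 2681. These 5 sites were named because they were few, after their values were seen.

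**Figure D5:**
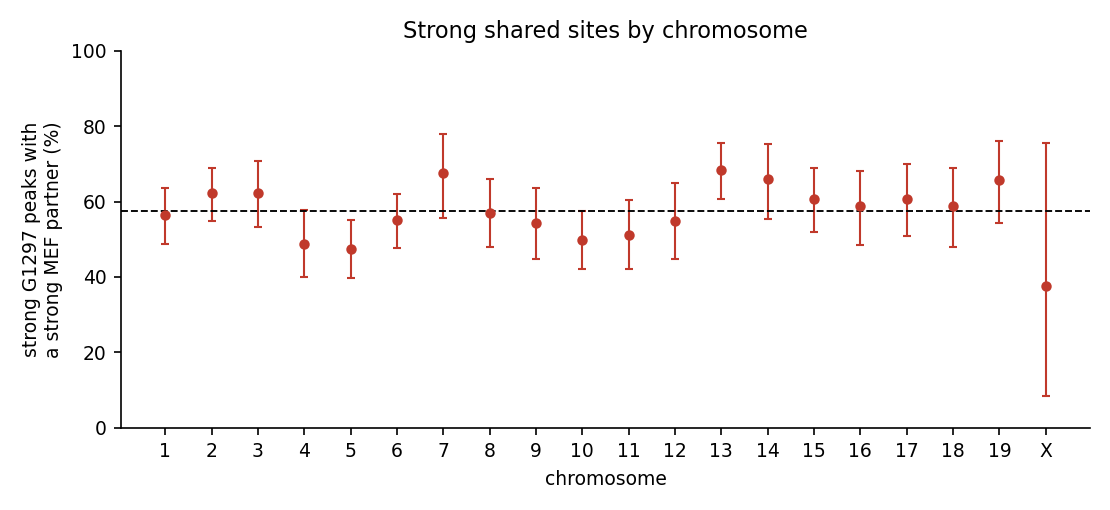
Share of G1297 peaks with a score of at least 500 that overlapped a MEF peak of at least 500 (percent), by chromosome. Points are shares, bars exact 95% binomial intervals and the dashed line the 57.5% of the whole list, with chromosome 13 highest among autosomes at 68.5% and chromosome X resting on 8 peaks.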

How the data were processed

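The authors' deposited lists give the position and the score of each peak, 1 list per cell type. The submitters' processing notes name FastQC, cutadapt, Bowtie2 2.2.0, MACS 1.4.2 and build mm9 (the study's methods also name a later build and MACS version, without saying for which data), and peaks were called at a P value of 1e-09, a score of 90. Read depth is unknown. The same raw score thresholds were applied to both lists, although their depths may differ.

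Overlaps, neighbours and medians were computed with pandas 2.3.3, numpy 2.4.6 and scipy 1.17.1 in Python 3.11.15, tested on simulated lists, and the 1436 sites were counted again with bedtools 2.31.1. For distances and widths each G1297 peak was paired with the strong MEF partner whose centre was nearest. The sites named were those with the highest lower score, the longest overlap at the top of the scale, the largest percentile gaps, the most MEF partners, the most neighbouring peaks, and those nearest the threshold. The members and lists were chosen with earlier results of these data known.

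The only genome and annotation at hand were GRCm38. They were used only to check the build, and 191 peaks ended past GRCm38 chromosome ends, so no peak was assigned a gene, a motif or a sequence. The alternatives were other thresholds, overlap definitions, distances and list sizes. The KRAB and input libraries were not analysed here.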

Additional observations from a re-analysis of the deposited data

How the results depend on the processing

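Of 33 values recomputed under an alternative, 17 stayed within 1.5 times the main count, within the 95% interval of the main share or median, or, for the correlation, equal when rounded. These include 2 of the median overlap, which is at its maximum of 100% and says nothing of stability. Another 16 moved further. The number of sites depended on the score threshold and on the length of the MEF list. It was 2259 at a score of at least 300 in both lists, 668 at 1000, and 746 when only the top MEF peaks by score were used, equal in number to the G1297 peaks at 500 or more, which leaves 29.9% of those G1297 peaks with a partner in place of 57.5%. How overlap was defined and how sites were counted left it between 1373 and 1435.

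At a threshold of 1000 the median distance between centres was 75.5 bp. The median G1297 width was 1103 bp at 300 and 1370 bp at 1000. The correlation of the scores was 0.09 below 3100 and 0.20 at a threshold of 300. The share of sites with a G1297 neighbour was 33.2% within 5000 bp, 59.4% within 20000 bp and 23.7% for neighbours of at least 500, and with thresholds of 300 and 1000 it was 42.6% and 53.1%. On chromosome 13 the share of strong G1297 peaks with a strong partner was 68.4% at 300 and 58.0% at 1000, against 60.4% and 51.2% over the list. The thresholds for neighbours and chromosomes and the share with the limited MEF list were chosen after seeing the data. So were the count and the median distance between centres without contigs. The cause of these differences was not tested.

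No paired analysis was possible because 1 list per cell type, with no values per replicate, was used, and leaving out a replicate was not possible either. The planned counts of CRE motifs and of promoters were not run, as they need an mm9 genome. The depth of the libraries is unknown, which limits all counts of peaks past a threshold.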
